A study of Mus musculus with 76 samples.

Results

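The 9 genes described here encode enzymes of the citrate cycle and the carrier that brings pyruvate into the mitochondrion: *Cs*, *Idh3a*, *Ogdh*, *Suclg1*, *Sucla2*, *Sdha*, *Mdh2*, *Mpc1* and *Mpc2*. They are 9 of the 56980 mouse genes in the deposited counts. They were selected with their levels by eGFP label and diet in these cells already known, so those levels are given as a description and without a test. Patch-seq was used, in which the content of a recorded neuron is drawn up through the recording pipette and sequenced. The 76 neurons came from male mice carrying Pomc-CreERT2, tdTomato and Pomc-eGFP. In all 4 groups tdTomato marks the cells in which the *Pomc* promoter drove Cre at the time of tamoxifen treatment, at an age of 12 weeks. Cells with eGFP at the time of recording are called Pomc+ and cells without it Ghost. Mice had been fed chow (CD) or a high-fat diet (HFD) for 6 months, with 5 mice per diet, which gave 38 cells per diet: 23 Pomc+ and 15 Ghost for CD, 19 of each for HFD. No mouse is named for a cell, so the cells of 1 label on 1 diet form a single sample. No p-value can be had from this design, and the spread over cells is given in its place.

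Pyruvate made by glycolysis enters the mitochondrial matrix through a carrier built of *Mpc1* and *Mpc2*, where the pyruvate dehydrogenase complex turns it into acetyl-CoA. Citrate synthase joins acetyl-CoA to oxaloacetate, and the cycle then passes through isocitrate dehydrogenase, 2-oxoglutarate dehydrogenase, succinyl-CoA synthetase, succinate dehydrogenase, fumarase and malate dehydrogenase. The cycle feeds electrons to the respiratory chain. Pomc neurons of the arcuate nucleus lower food intake and sense nutrients and hormones, and mitochondrial metabolism has been studied in them in that role.

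Upstream sequences were looked at because they are a property that the choice of the genes did not use. The RefSeq table for GRCm38.p6 held the bases before the start site for 8 of the 9 genes, with 6 start sites for *Ogdh*, 2 for *Mpc1* and 1 for each other gene. *Idh3a* was the gene without an entry. The sequences of 3 genes are shown. *Cs* was taken because it alone of the 9 genes had a mean 2-fold or more lower in Ghost cells on both diets. *Suclg1* and *Mdh2* were taken because their levels had the highest rank correlation of any pair across cells. Only bases outside exons annotated in GENCODE M21 are printed, 5′ to 3′ on the strand of the gene. Capitals mark the letters CCAAT or GGGCGG on either strand, so that ATTGG and CCGCCC are also in capitals, and no 2 of the printed matches overlap. The *Cs* sequence is chr10:128337477-128337726, the *Suclg1* sequence chr6:73248255-73248381 and the *Mdh2* sequence chr5:135778399-135778479, all on the plus strand.
Cs: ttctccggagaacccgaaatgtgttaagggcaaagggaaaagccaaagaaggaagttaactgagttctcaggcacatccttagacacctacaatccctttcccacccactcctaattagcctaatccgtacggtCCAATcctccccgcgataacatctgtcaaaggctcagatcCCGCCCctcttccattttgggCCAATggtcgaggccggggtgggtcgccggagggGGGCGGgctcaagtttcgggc
Suclg1: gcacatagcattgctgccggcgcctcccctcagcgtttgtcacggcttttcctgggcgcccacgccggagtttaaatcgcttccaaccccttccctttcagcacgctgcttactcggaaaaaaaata
Mdh2: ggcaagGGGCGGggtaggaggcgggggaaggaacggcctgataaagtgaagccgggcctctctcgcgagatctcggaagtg
In the full windows of 250 bases, GGGCGG was found for 6 of the 8 genes and in 32.7% of all 32851 windows of the table. CCAAT was found for 5 of the 8 genes and in 33.8% of all windows. The CRE letters TGACGTCA were found for *Ogdh* and *Mdh2*, the latter in the part that is not printed, and in 1.55% of all windows. The letters GCATGCGC, part of the NRF-1 site, were found for *Ogdh* alone and in 2.26% of windows. The ETS letters CCGGAAG were found for *Mpc1* alone and in 6.91% of windows. AAGGTCA, the core to which estrogen-related receptors bind, was found for none of the 8 genes and in 4.08% of windows. The *Suclg1* window held none of the 6 motifs. Motifs were searched on both strands, and a gene with several start sites had more windows in which one could be found. The windows of the 8 genes had 50% to 74% G or C. Over all windows the median was 52.4% and the upper quartile 61.2%. The part of base composition in the motif counts was not tested.

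A cell had between 4057 and 1452605 counts, and the group medians were 339691 (Pomc+ CD), 123528 (Ghost CD), 393797 (Pomc+ HFD) and 333785 (Ghost HFD). Of all counts 43.7% fell on 7 genes that were counted in every cell, and these took a median share of 51.4%, 48.6%, 47.2% and 43.9% in the same order. The 9 genes together had 44224 counts, or 0.134% of the total. Levels are given as CPM, the count of a gene in a cell per 1000000 counts of that cell. *Pomc* had a count in 73 of the 76 cells, with means of 11652, 6296, 3414 and 3686 CPM in the same order of groups. The ratio of its Ghost mean to its Pomc+ mean was 0.540 on CD and 1.08 on HFD. Fewer cells with a transcript and less of it per cell give the same mean, so the share of cells with a count stands beside each level.

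A median of 5 of the 9 genes had a count in a cell. The median was 6 in Pomc+ CD, 4 in Ghost CD, 5 in Pomc+ HFD and 5 in Ghost HFD cells, and each group ran from 0 to 9. At least 6 of the 9 were counted in 12 of 23, 3 of 15, 9 of 19 and 7 of 19 cells in the same order. All 9 were counted in 6 cells and none in 5 cells, which lay in all 4 groups. Over the 76 cells the number of these genes with a count had a Spearman rho of 0.85 with the number of all genes with a count and of 0.63 with total counts, given as a description, since the measures come from the same libraries. The plot of genes counted per cell shows that the 4 groups run along 1 trend.

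**Figure D1:**
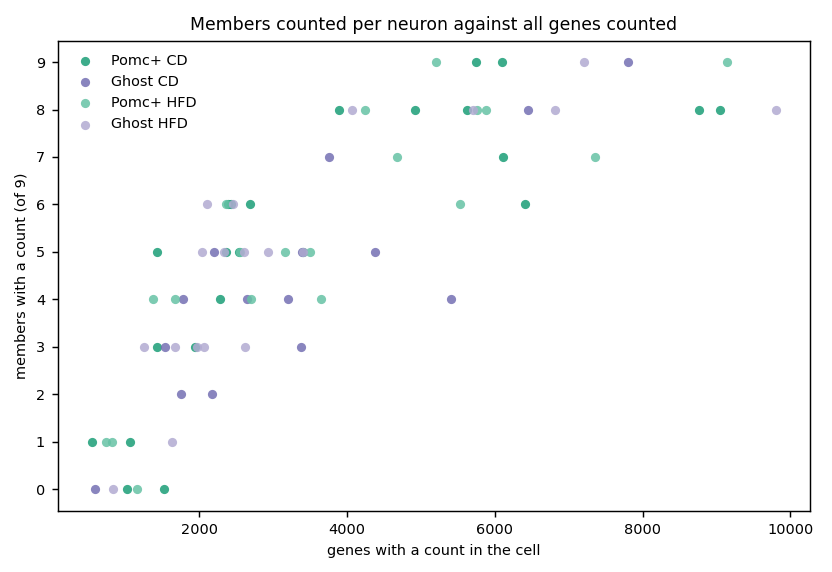
Each point is 1 of the 76 neurons. The horizontal axis gives the number of all genes with a count in that neuron and the vertical axis how many of the 9 citrate cycle and pyruvate carrier genes had a count; points of all 4 groups lie along the same rise, and the 5 neurons with none of the 9 genes had at most 1528 genes.

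The summed level of the 9 genes was widest in Pomc+ cells on CD. It ran from 0 over a median of 1193 to 3768 CPM in Pomc+ CD cells, with a mean of 1547 CPM. In Ghost CD cells it ran from 0 over 1033 to 3490.1 CPM, with a mean of 1158 CPM. In Pomc+ HFD cells it ran from 0 over 1259.6 to 2681 CPM with a mean of 1187 CPM, and in Ghost HFD cells from 0 over 1153 to 3212 CPM with a mean of 1029.8 CPM. All 4 groups overlapped over most of their range. The ratio of means of Ghost to Pomc+ cells was 0.749 on CD and 0.867 on HFD, and that of HFD to CD was 0.767 in Pomc+ and 0.889 in Ghost cells. On HFD the Ghost cells had the higher sum when the 7 genes counted in every cell were left out of the total, at 1.04. The same held in summed counts, at 1.1, and weighted over the blocks of cell numbers described below, at 1.14. The ratio of HFD to CD in Ghost cells was 1.02 without those 7 genes and 1.04 in the normalized counts described below.

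Between genes, levels were compared per kilobase of coding-transcript exons, because longer transcripts give more fragments. Over all 76 cells the mean was 175 CPM per kilobase for *Mdh2*, 110.6 for *Sdha*, 84.1 for *Mpc2*, 77.6 for *Suclg1*, 52.7 for *Sucla2*, 40.2 for *Idh3a*, 38.4 for *Cs*, 29.3 for *Ogdh* and 5.01 for *Mpc1*. The lower quartile over cells was 0 for each of the 9 genes, so no neighbours in this order were separated by the spread over cells. *Mpc1* lay lowest, and its ratio to *Ogdh*, the gene next above it, was larger than any other step between neighbours.

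The plot of single cells shows each level. *Mpc1* (ENSMUSG00000023861, chromosome 17, 8282904 to 8297661, plus strand, GRCm38) and *Mpc2* (ENSMUSG00000026568, chromosome 1, 165460637 to 165481214, plus strand) encode the 2 parts of the pyruvate carrier. *Mpc2* ran from 0 over 2.51 to 223 CPM in Pomc+ CD cells, from 0 over 0 to 254 CPM in Ghost CD cells, from 0 over 35.6 to 448 CPM in Pomc+ HFD cells and from 0 over 39 to 1628 CPM in Ghost HFD cells (lowest, median and highest). The HFD groups thus reached higher than the CD groups, and all 4 groups overlapped. Means were 41.5, 48.1, 90.2 and 166 CPM in the same order. It was counted in 13 of 23, 5 of 15, 12 of 19 and 14 of 19 cells. The 1 Ghost HFD cell at 1628 CPM, which had 12900 counts in all and no count for the other 8 genes, held 51.5% of the sum of its group.

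*Mpc1* was the gene seen least. It had 313 counts in 29 of 76 cells and reached at most 59.2 CPM, and its median was 0 CPM in every group. Means were 6.55 CPM in Pomc+ CD, 6.80 in Ghost CD, 9.92 in Pomc+ HFD and 6.22 in Ghost HFD cells. Its level is uncertain, because the processed copy *Mpc1-ps* had 309 counts in 27 cells. Both were counted in 24 cells, *Mpc1* alone in 5 and the copy alone in 3. With the copy added, the means were 14.1, 15.2, 17.5 and 11.1 CPM. Of the 20 cells with counts for both *Mpc1* and *Mpc2*, *Mpc2* had the higher CPM in 19.

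*Cs* (ENSMUSG00000005683, chromosome 10, 128337734 to 128362479, plus strand) encodes citrate synthase, the first enzyme of the cycle. It ran from 0 over 0 to 972 CPM in Pomc+ CD cells and from 0 over 0 to 266 CPM in Ghost CD cells. In Pomc+ HFD cells it ran from 0 over 25.3 to 758 CPM, and in Ghost HFD cells from 0 over 0 to 371 CPM. The highest cells of both diets were Pomc+, while cells at 0 made up a large part of every group. Means were 176, 48.6, 141 and 56.1 CPM for Pomc+ CD, Ghost CD, Pomc+ HFD and Ghost HFD. *Cs* took 11.4% of the summed level of the 9 genes in Pomc+ CD and 11.9% in Pomc+ HFD cells, against 4.20% in Ghost CD and 5.45% in Ghost HFD cells. Its coding copy *Csl* had no count in any cell.

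*Idh3a* (ENSMUSG00000032279, chromosome 9, 54586334 to 54604661, plus strand) encodes the catalytic subunit of the NAD-dependent isocitrate dehydrogenase. It was the most even of the 9 genes in its share of cells, with a count in 12 of 23, 8 of 15, 10 of 19 and 10 of 19 cells. Means were 109.6, 82.1, 120.5 and 97.1 CPM. The highest cell stood at 398, 413, 693 and 571 CPM and the median at 3.87, 8.10, 11.3 and 16 CPM, so the groups overlapped throughout.

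*Ogdh* (ENSMUSG00000020456, chromosome 11, 6291633 to 6356642, plus strand) encodes the E1 subunit of the 2-oxoglutarate dehydrogenase complex. It had a count in 15 of 23, 8 of 15, 11 of 19 and 12 of 19 cells, with means of 133, 111, 127 and 146 CPM. Medians were 23.5, 36, 29.3 and 50.2 CPM and the highest cells 653, 581, 638 and 1027 CPM. The groups overlapped throughout.

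*Suclg1* (ENSMUSG00000052738, chromosome 6, 73248382 to 73276911, plus strand) encodes the alpha subunit of succinyl-CoA synthetase, and *Sucla2* (ENSMUSG00000022110, chromosome 14, 73525319 to 73596142, plus strand) the beta subunit of its ADP-forming type. *Suclg1* ran from 0 over 67.1 to 1507 CPM in Pomc+ CD cells and from 0 over 0 to 719.9 CPM in Ghost CD cells. On HFD it ran from 0 over 0 to 218 CPM in Pomc+ and from 0 over 0 to 354 CPM in Ghost cells. It was counted in 16 of 23 Pomc+ CD cells and in 6 of 15, 8 of 19 and 6 of 19 cells of the other groups. Means were 229, 129, 34.3 and 58.1 CPM, and 3 cells held 65% of the Pomc+ CD sum. The 6 highest cells, all above the highest HFD cell, were 4 Pomc+ and 2 Ghost cells from CD mice, and the 4 groups overlapped below them.

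*Sucla2* was counted in 13 of 23, 8 of 15, 11 of 19 and 11 of 19 cells. It ran from 0 over 26 to 817 CPM in Pomc+ CD, from 0 over 22.4 to 1339.8 CPM in Ghost CD, from 0 over 43.2 to 707 CPM in Pomc+ HFD and from 0 over 6.87 to 247 CPM in Ghost HFD cells. Means were 146, 146, 132 and 45.8 CPM, and Ghost HFD cells thus had the lowest mean, median and highest cell. A single Ghost CD cell, with 28362 counts in all, held 61.2% of the sum of its group. *Suclg1* and *Sucla2* were both counted in 26 of the 76 cells, *Suclg1* alone in 10, *Sucla2* alone in 17 and neither in 23.

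*Sdha* (ENSMUSG00000021577, chromosome 13, 74322254 to 74350280, minus strand) encodes the flavoprotein subunit of succinate dehydrogenase, which also belongs to the respiratory chain. It was counted in 16 of 23, 10 of 15, 15 of 19 and 13 of 19 cells, with means of 391, 308, 268 and 298 CPM and medians of 289, 226, 166 and 211 CPM. The highest cells stood at 2681, 987, 1072 and 1107 CPM. It took the largest part of the summed level of the 9 genes in every group, from 22.6% to 28.9%. *Mdh2* (ENSMUSG00000019179, chromosome 5, 135778480 to 135790398, plus strand) encodes the mitochondrial malate dehydrogenase that closes the cycle. It was counted in 18 of 23, 9 of 15, 15 of 19 and 13 of 19 cells. Means were 313, 279, 264 and 157 CPM, medians 247, 36.1, 104 and 132 CPM, and the highest cells 1203, 1419, 1181 and 578 CPM. For both genes the groups overlapped over most of their range.

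**Figure D2:**
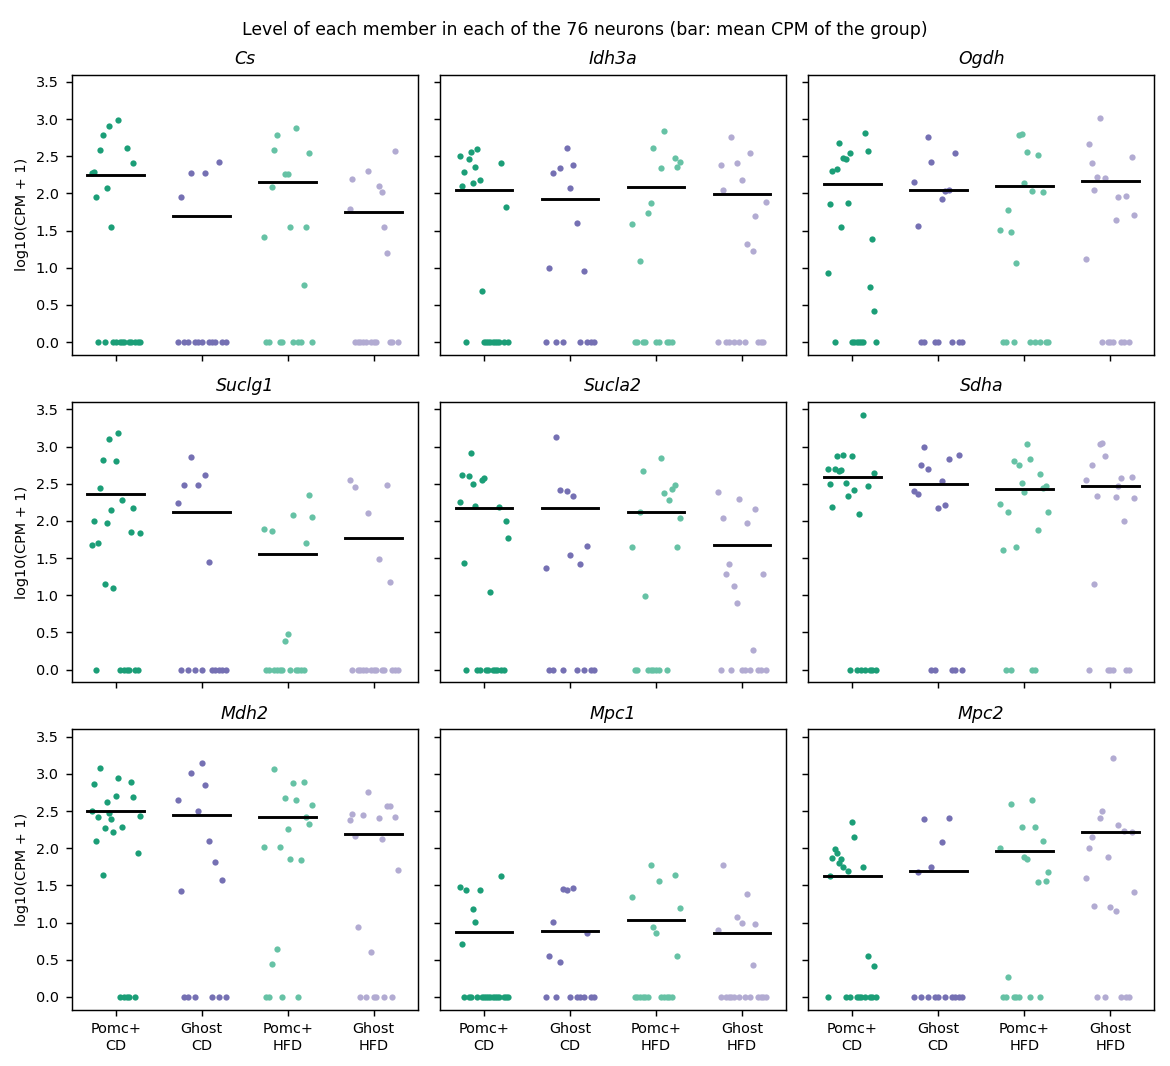
Level of each of the 9 genes, as log10(CPM + 1) on the vertical axis, in each of the 76 neurons (points) by label and diet; the bar marks the mean CPM of the group on the same axis. Cells at 0 occur in every group for every gene, the highest *Cs* values are in Pomc+ cells, and the 6 highest *Suclg1* values are in cells from CD mice.

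Ghost and Pomc+ cells were compared first, since the study asked how the 2 kinds of cell differ in what they express. On CD the mean was lower in Ghost cells for 7 of the 9 genes, against 51.9% of all 10638 genes that reached 5 counts in 3 or more cells and had a count in both groups. On HFD it was lower for 5 of the 9, against 56.4% of 11098 genes. A ratio of 2-fold or more lower was reached by *Cs* alone on CD, where 26.9% of all genes reached it, and by *Cs* and *Sucla2* on HFD, where 31.6% did. None of the 9 genes was 2-fold or more higher on either diet, while 23.9% of all genes were on CD and 20.2% on HFD. The rule that chose the genes used these contrasts, and nothing is read from the counts. The values nearest to 2-fold in any comparison were 2.17 for *Mpc2* and 0.449 for *Suclg1* on the inner side, both HFD over CD, and 0.562 for *Mdh2* and 1.84 for *Mpc2* on the outer side.

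For Ghost against Pomc+ cells on CD, the 9 genes had a median log2 ratio of -0.26 and all genes one of -0.06. On HFD these medians were -0.31 and -0.23. In the deposited normalized counts, which divide each cell by a factor of its own, the median over all genes moved to -0.74 on CD and -0.51 on HFD. By the default method of DESeq2 that factor would be drawn from the 7 genes counted in every cell, but the option used is not given. On that scale 9 of the 9 genes were lower in Ghost cells on CD, as were 69.2% of all genes, and 7 of the 9 on HFD, as were 63.5% of all genes. The plot of ratios gives each gene on each scale.

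*Cs* was the one gene of the 9 whose mean was 2-fold or more lower in Ghost cells on both diets. Its Ghost mean was 0.276 times the Pomc+ mean for CD and 0.397 times for HFD. The log2 ratio, set against that of the median gene, was -1.80 and -1.11. In normalized counts these relative values were -1.77 and -1.07, and without the 7 genes counted in every cell -1.75 and -0.82, where the HFD ratio itself was 0.524 and so no longer 2-fold. In summed counts the CD ratio was 0.482. Leaving out any 1 cell kept the ratio between 0.188 and 0.347 on CD and between 0.273 and 0.524 on HFD. Among all genes 9.09% were 2-fold or more lower in Ghost cells on both diets. Among the 5010 genes counted in at least 20 cells and in every group, as the 9 genes were, 4.83% were. The share of cells with a *Cs* count was 47.8% in Pomc+ CD (95% exact interval 26.8% to 69.4%) and 26.7% in Ghost CD cells (7.79% to 55.1%). On HFD it was 57.9% (33.5% to 79.7%) and 42.1% (20.3% to 66.5%). These intervals cover counting error only, and they overlapped on both diets.

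The cells carry running numbers in the labels that fall into 8 blocks of 1 diet each, and the labels do not say what sets the blocks apart. In 3 of the 4 CD blocks the mean of *Cs* in Ghost cells was 0.188, 0.192 and 0.195 times that in Pomc+ cells, and in the last CD block it was 0.796 times. On HFD the ratio was 0.253 in the block with 11 Ghost and 10 Pomc+ cells, 0.475 in a block with 1 Ghost and 3 Pomc+ cells, and 1.58 in the last block, with 3 Ghost and 5 Pomc+ cells. In the remaining HFD block the only Pomc+ cell had no count. Weighted over blocks the ratio was 0.266 on CD and 0.496 on HFD.

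Other genes differed between labels on 1 diet. *Sucla2* had a ratio of 0.347 on HFD, which was 0.785 in summed counts and 0.552 weighted over blocks, and 0.999 on CD, where leaving out the 1 high Ghost cell gave 0.415. *Mdh2* had 0.594 on HFD and 0.890 on CD. *Suclg1* lay on opposite sides, at 0.565 on CD and 1.69 on HFD, and its ratio on CD turned to 1.34 in summed counts, where deep cells weigh more. *Mpc2* was at 1.16 on CD and 1.84 on HFD, and without the highest Ghost cell the HFD ratio was 0.944. *Idh3a* was at 0.750 and 0.806, *Ogdh* at 0.834 and 1.15, *Sdha* at 0.786 and 1.11, and *Mpc1* at 1.04 and 0.627, each on CD and then HFD. On HFD the *Idh3a* ratio turned to 1.30 when weighted over blocks and the *Ogdh* ratio to 0.766 without 1 Ghost cell, and that of *Mpc1* was 0.337 without 1 Ghost cell. On CD the *Sdha* ratio turned to 1.07 without 1 Pomc+ cell.

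Most astrocyte markers were lower in Ghost cells. Of 6 such genes 5 had a lower mean in Ghost cells on CD and 6 on HFD, beside 51.9% and 56.4% of all genes. The exception on CD was *Slc1a2*, counted in 43 cells, with ratios of 1.71 on CD and 0.194 on HFD. Their summed level ran from 0 to 4307 CPM in Pomc+ CD and from 0 to 2110.3 CPM in Ghost CD cells, with means of 860.4 and 488 CPM, and from 0 to 3527 and from 0 to 1431 CPM on HFD, with means of 1086 and 261 CPM. None of the 6 was at 0 in a whole group. *Aldoc*, a glycolytic enzyme, made up most of it. *Slc1a3*, a glutamate transporter, had ratios of 0.253 and 0.0769, *Aldoc* of 0.454 and 0.258 and *Gja1*, a gap junction protein counted in 11 cells, of 0.369 and 0.0552 on CD and HFD. On CD *Gja1* was counted in only 2 Pomc+ cells and 1 Ghost cell. *Cx3cr1*, a microglial receptor counted in 13 cells, had 0.0176 and 0.406. Of the microglial markers with counts in both labels, 3 of 4 were lower in Ghost cells on CD and 5 of 7 on HFD, with *C1qa* at 1.14 on CD and *Tmem119* at 3.56 on HFD among the others. In normalized counts *Cx3cr1* was at 1.25 on HFD, and without the 7 genes counted in every cell *Gja1* was at 1.09 on CD, so these 2 changed side there. The part of these transcripts in the levels of the 9 genes was not tested. The 7 neuron markers had summed means of 2433, 2047, 2213 and 2016 CPM in Pomc+ CD, Ghost CD, Pomc+ HFD and Ghost HFD cells, with 4 of 7 lower in Ghost cells on CD and 3 of 7 on HFD.

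**Figure D3:**
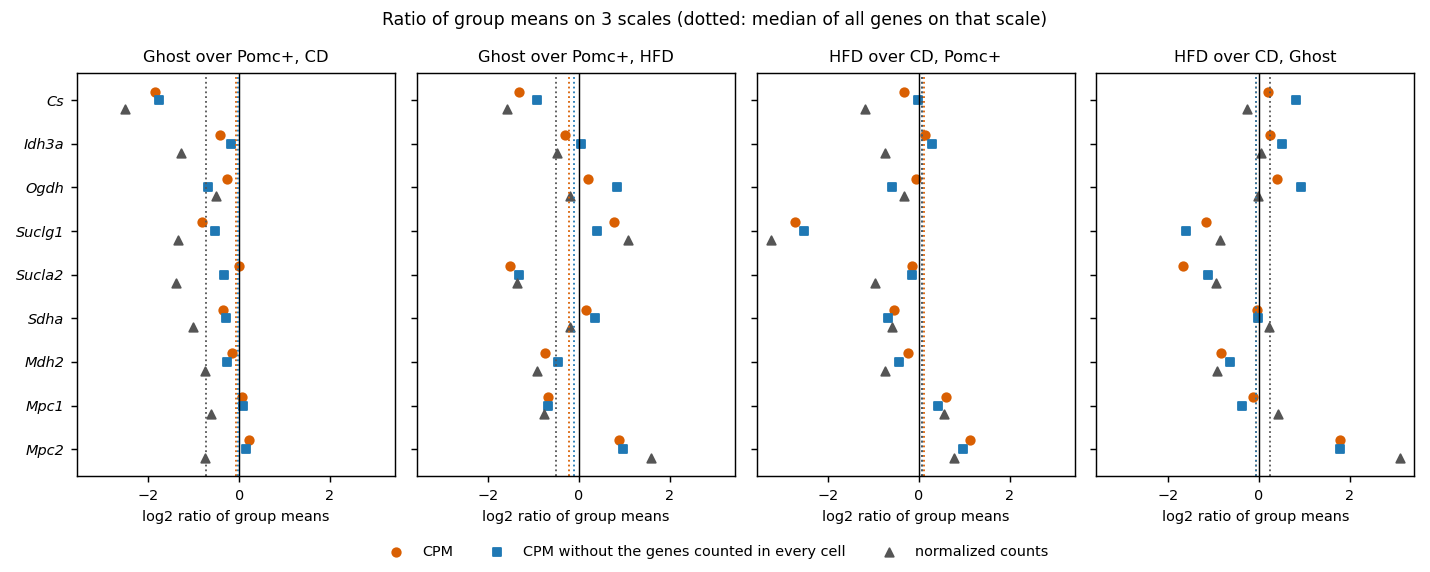
Log2 ratio of group means (horizontal axis) for each of the 9 genes in the 4 comparisons, in CPM, in CPM with the 7 ubiquitous genes left out of the total, and in the deposited normalized counts; dotted lines mark the median of all genes on each scale. *Cs* lies left of every line in both label comparisons, *Suclg1* lies left in both diet comparisons and *Mpc2* lies right in both diet comparisons on all 3 scales.

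The diets were compared within each label. In Pomc+ cells the mean was lower on HFD for 6 of the 9 genes, against 46% of 11369 genes, and in Ghost cells for 5 of the 9, against 51.9% of 10413 genes. A ratio of 2-fold or more lower was reached by *Suclg1* in Pomc+ cells, as by 20.5% of all genes, and by *Suclg1* and *Sucla2* in Ghost cells, as by 27.6%. *Mpc2* was 2-fold or more higher in both labels, as were 27.2% of all genes in Pomc+ and 26% in Ghost cells. The median log2 ratio over the 9 genes was -0.15 in Pomc+ cells, where that of all genes was 0.12, and -0.05 in Ghost cells, where that of all genes was -0.07. The 2 label comparisons and the 2 diet comparisons share cells, so they are not independent of each other.

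*Suclg1* was 6.68-fold lower on HFD in Pomc+ cells, with a ratio of 0.15, and 2.23-fold lower in Ghost cells, with a ratio of 0.449. Leaving out any 1 cell gave 0.105 to 0.201 in Pomc+ and 0.322 to 0.666 in Ghost cells, and the Ghost ratio in normalized counts was 0.556. The share of Pomc+ cells with a count was 69.6% on CD (47.1% to 86.8%) and 42.1% on HFD (20.3% to 66.5%), and for 40000 counts drawn from each cell the expected shares were 68.5% and 32.9%. In Ghost cells the shares were 40% on CD (16.3% to 67.7%) and 31.6% on HFD (12.6% to 56.6%). Over both labels the mean in the 4 CD blocks was 103, 294, 347 and 23.7 CPM and in the 4 HFD blocks 43.5, 36.9, 62.7 and 47.6 CPM, so the last CD block lay below all HFD blocks and the others above them. Of all genes 6.23% were 2-fold or more lower on HFD in both labels, and of those counted in at least 20 cells 3.43%.

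*Mpc2* was higher on HFD by 2.17-fold in Pomc+ and by 3.46-fold in Ghost cells. Leaving out any 1 cell gave 1.69 to 2.71 in Pomc+ cells and 1.77 to 4.99 in Ghost cells, and the lowest of these, 1.77, was the value without the Ghost HFD cell at 1628 CPM. In normalized counts the ratios were 1.70 and 8.62. The share of cells with a count was 56.5% in Pomc+ CD (34.5% to 76.8%) and 63.2% in Pomc+ HFD cells (38.4% to 83.7%). In Ghost cells it was 33.3% on CD (11.8% to 61.6%) and 73.7% on HFD (48.8% to 90.9%), and for 40000 counts drawn from each cell the expected shares were 31.7% and 64%. Block means over both labels were 27, 60.1, 91.9 and 4.90 CPM on CD and 160, 133, 112 and 53.9 CPM on HFD, so 3 of the 4 HFD blocks lay above every CD block and the last HFD block between them. Of all genes 7.58% were 2-fold or more higher on HFD in both labels, and of those counted in at least 20 cells 3.95%.

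The remaining genes had ratios of HFD to CD between 0.686 (*Sdha*) and 1.51 (*Mpc1*) in Pomc+ cells. Without 1 Pomc+ CD cell *Sdha* was at 0.934, and in summed counts *Mpc1* was at 0.759. In Ghost cells *Sucla2* had 0.314, which became 0.755 without the 1 high CD cell, *Mdh2* had 0.562, and the others lay between 0.914 (*Mpc1*) and 1.31 (*Ogdh*). These end values in Ghost cells rested on single Ghost HFD cells, without which *Mpc1* was at 0.491 and *Ogdh* at 0.873.

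**Figure D4:**
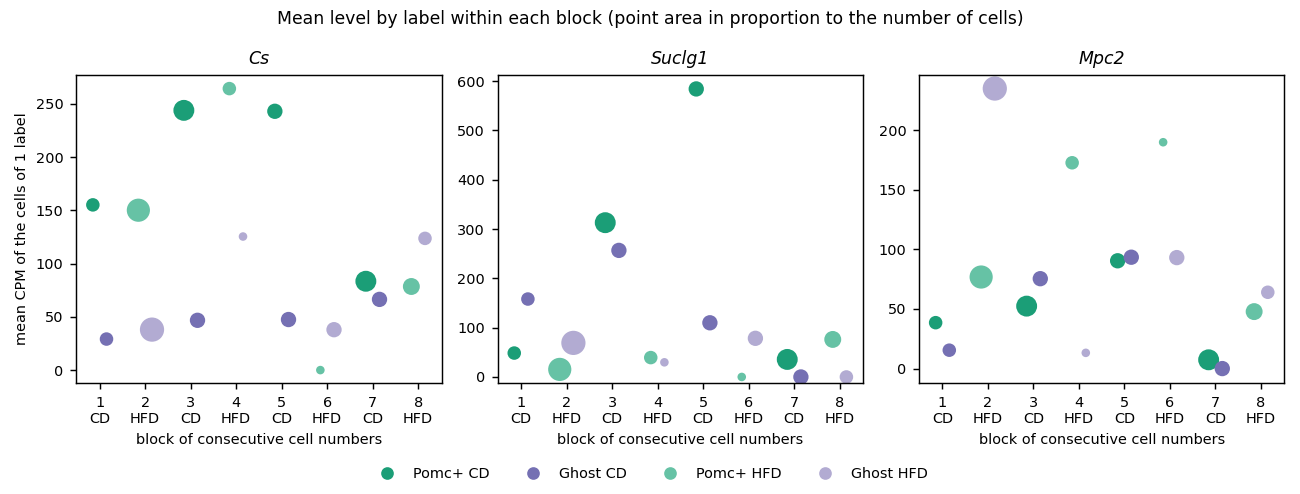
Mean CPM (vertical axis) of *Cs*, *Suclg1* and *Mpc2* in the Pomc+ and Ghost cells of each of the 8 blocks of consecutive cell numbers (horizontal axis, with the diet); the area of a point is in proportion to its number of cells, from 1 to 11. The Ghost point lies under the Pomc+ point for *Cs* in all 4 CD blocks.

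Microglial markers moved with the diet. Of 7 such genes all 4 with counts in Pomc+ cells of both diets had a higher mean on HFD, each by 2-fold or more. The same held for all 6 with counts in Ghost cells of both diets. Of all genes 27.2% in Pomc+ and 26% in Ghost cells were 2-fold or more higher on HFD. Their summed level ran from 0 to 1784 CPM in Pomc+ CD and from 0 to 801 CPM in Ghost CD cells, with means of 192 and 113 CPM, and from 0 to 10797 and from 0 to 6013 CPM on HFD, with means of 1346 and 1319 CPM. *P2ry12*, *Csf1r* and *Tmem119* were at 0 in all Pomc+ CD cells and *P2ry12* in all Ghost CD cells. At least 3 of the 7 markers were counted in 2, 3, 6 and 8 cells of Pomc+ CD, Ghost CD, Pomc+ HFD and Ghost HFD. Without these cells the ratio of HFD to CD was 0.0779 for *Suclg1* and 2.38 for *Mpc2* in Pomc+ cells, and 0.232 and 2.15 in Ghost cells. With all cells these ratios were 0.15 and 2.17 in Pomc+ cells, and 0.449 and 3.46 in Ghost cells. All but that of *Mpc2* in Pomc+ cells moved by over 1.5-fold. Ghost over Pomc+ for *Cs* was 0.126 on CD and 0.349 on HFD without the same cells, and 0.276 and 0.397 with all cells. Other values moved by over 1.5-fold as well. *Ogdh* went from 1.15 to 3.17 in Ghost over Pomc+ on HFD and from 0.95 to 0.410 in HFD over CD of Pomc+ cells. *Cs* went from 1.15 to 2.38 in HFD over CD of Ghost cells, and *Mpc2* from 1.84 to 0.999 in Ghost over Pomc+ on HFD. Cells with at most 2 of the 7 markers were kept, and the part of microglial transcripts in these levels was not tested. Among the other markers, *Gja1* and *Aqp4* of astrocytes, *Mbp* of oligodendrocytes, and *Ctss*, *C1qb*, *C1qa* and *Cx3cr1* of microglia were 2-fold or more higher on HFD in both labels. The astrocyte markers as a whole did not share a direction. In Pomc+ cells 1 of 6 was lower on HFD, and in Ghost cells 4 of 6 were, 3 of them by 2-fold or more (*Slc1a2* at 0.179, *Slc1a3* at 0.367 and *Gfap* at 0.451). Of all genes 46% in Pomc+ and 51.9% in Ghost cells were lower on HFD, and 27.6% in Ghost cells by 2-fold or more. The 4 endothelial markers were counted in at most 5 cells of a group and the 4 tanycyte markers in at most 4, with *Rax* and *Frzb* at 0 in every cell.

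**Figure D5:**
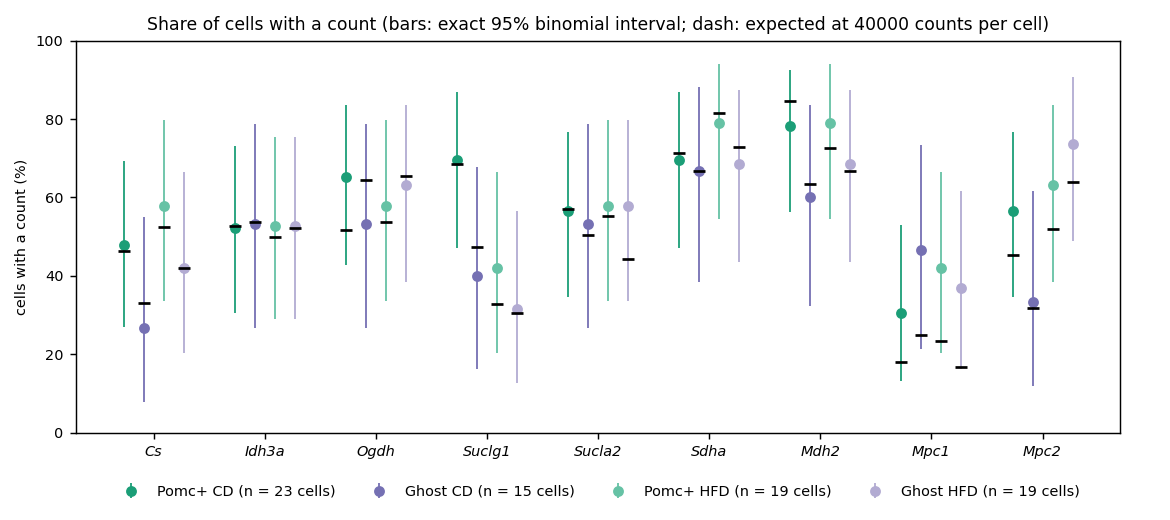
Share of cells with a count (vertical axis, percent) for each of the 9 genes by label and diet, with exact 95% binomial intervals that cover counting error only; black dashes mark the share expected for 40000 counts drawn from each cell that has as many. The intervals of the 4 groups overlap for every gene, and over all cells the share of *Mpc1* falls most at equal depth, from 38.2% to 20.3%.

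Drawing 40000 counts from each cell left out 2 Pomc+ CD, 3 Ghost CD, 1 Pomc+ HFD and 2 Ghost HFD cells with fewer. The expected share with a *Cs* count was then 46.3%, 33.1%, 52.4% and 41.9% in the 4 groups, and that with an *Idh3a* count 52.7%, 53.7%, 50% and 52.3%. For *Mdh2* it was 84.7%, 63.4%, 72.7% and 66.7%. For *Mpc1* it was 18%, 24.9%, 23.4% and 16.6%, against 30.4%, 46.7%, 42.1% and 36.8% at full depth.

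Across the 76 cells the levels of the 9 genes had low rank correlations. The 36 pairs had Spearman rho values from -0.0018 to 0.59 with a median of 0.20, and 9 pairs were above 0.3. The cells share mice and differ in depth, and many values are 0, so these are descriptions. The highest value belonged to *Suclg1* and *Mdh2*, at 0.59, and was 0.53 in the 68 cells with at least 40000 counts. It was 0.73 in Pomc+ CD, 0.55 in Ghost CD, 0.35 in Pomc+ HFD and 0.60 in Ghost HFD cells. *Sucla2* and *Mdh2* had 0.45 and *Idh3a* and *Mdh2* 0.44. *Mpc1* and *Mpc2*, which form 1 carrier, had 0.08, and *Suclg1* and *Sucla2*, which form 1 enzyme, had 0.38. Of the 5011 genes with a symbol that were counted in at least 20 cells and are not among the 9, those most like the summed level of the 9 were *Gapdh*, a glycolytic enzyme, with a rho of 0.72, *Uchl1*, a neuronal ubiquitin hydrolase, with 0.67, *Ubb*, a ubiquitin gene, with 0.65, *Sdcbp* with 0.65 and *Snrpn* with 0.64. With the 7 genes counted in every cell left out of the totals, the same 5 genes had 0.42 to 0.50. The summed level had a rho of -0.62 with the share of counts that those 7 genes took.

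Of the other genes of the pathway, a list of 46 covered pyruvate oxidation, the rest of the cycle, anaplerosis and shuttles, pyruvate and lactate supply, and mitochondrial pores and biogenesis. On CD 25 of the 41 with counts in both labels had a lower mean in Ghost cells, 12 by 2-fold or more, and 5 were 2-fold or more higher, where these shares of all genes were 51.9%, 26.9% and 23.9%. On HFD 24 of 42 were lower, 10 by 2-fold or more, and 8 were 2-fold or more higher, beside 56.4%, 31.6% and 20.2% of all genes. The list's median log2 ratio was -0.27 on CD and -0.15 on HFD, beside -0.06 and -0.23 for all genes. Between the diets 18 of 44 were lower on HFD in Pomc+ cells, 5 by 2-fold or more, with 7 that were 2-fold or more higher, beside 46%, 20.5% and 27.2% of all genes. In Ghost cells 16 of 41 were lower, 4 by 2-fold or more, with 8 that were 2-fold or more higher, beside 51.9%, 27.6% and 26%. The median log2 ratios of the list were 0.22 and 0.27, and those of all genes 0.12 and -0.07.

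In pyruvate oxidation, 5 of the 9 genes with a ratio were 2-fold or more lower in Ghost cells on CD and 1 was 2-fold or more higher, where 26.9% and 23.9% of all genes were. On HFD 4 of 10 were 2-fold or more lower and 3 higher, close to the 31.6% and 20.2% of all genes. *Dld*, the dihydrolipoamide dehydrogenase that pyruvate and 2-oxoglutarate dehydrogenase share, had means of 43.3 and 16.7 CPM in Pomc+ and Ghost cells on CD and of 81.2 and 29.7 CPM on HFD, ratios of 0.386 and 0.365. *Pdhx*, which binds it into the pyruvate dehydrogenase complex, was counted in 15 cells, with means of 8.12 and 0.398 CPM on CD and of 42 and 8.64 CPM on HFD, so it was also higher on HFD in both labels. *Pdp1*, a phosphatase that activates the complex, had means of 10.7 and 35.8 CPM on CD and 27.5 and 227 CPM on HFD. It was higher in Ghost cells by 3.36-fold and 8.24-fold and higher on HFD by 2.58-fold in Pomc+ and 6.34-fold in Ghost cells. *Pdp2*, the other such phosphatase of the list, went the other way and was added after its values were seen. It was counted in 9 cells, with means of 10.4 CPM in Pomc+ CD and 12.3 CPM in Pomc+ HFD cells and no count in Ghost cells. Of the 11 other genes of the cycle, *Suclg2*, the beta subunit of the GDP-forming succinyl-CoA synthetase, was counted in 13 cells and had means of 9.21 and 28.6 CPM on CD and 1.58 and 16.6 CPM on HFD. *Ppargc1a*, a coactivator of genes of mitochondrial biogenesis, was counted in 21 cells, with means of 3.67 and 24.7 CPM on CD and 2.37 and 52.9 CPM on HFD. It was thus 6.72-fold and 22.4-fold higher in Ghost cells. On CD its ratio was 2.64 in normalized counts and 1.75 without the 7 genes counted in every cell, and the ratios of *Pdp1* in normalized counts were 1.86 on CD and 2.61 on HFD. Each of these genes was counted in at most 10 cells of a group, so a few cells set its mean.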

How the data were processed

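Patched neurons were amplified with SMART-Seq Single Cell chemistry, tagged with Nextera XT and sequenced in pairs. The submitters' processing notes name cutadapt 2.10, STAR 2.7.5a and DESeq2, and the builds GRCm38 and mm10; the annotation and the counting program are not given in the sources used here. The authors deposited raw counts of 56980 genes in 76 cells, and normalized counts, a signal that is the count divided by 1 size factor per cell. No molecular identifiers are described, so intervals and limits cover counting error only.

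CPM and ratios of group means were computed here with Python 3.11.15, numpy 2.4.6, pandas 2.3.3 and scipy 1.17.1. The ratio of means was checked on simulated Poisson counts, with no variation between cells beyond depth and counting. That check covers the calculation, not how far the ratios in these cells can be relied on. All cells entered the main values. Exact Clopper-Pearson intervals are at 95%. Shares at equal depth are the hypergeometric expectation. All cells of both tables belong to the 76 samples. Symbols matched 52073 of the 56980 identifiers, and the identifiers without a symbol held 36.6% of all counts. Positions, lengths and overlaps are from GENCODE M21 on GRCm38, which lacks 4855 of the identifiers in the files, so the authors' annotation may be a later one.

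The members and lists were chosen with earlier results of these data known. Named genes are the 9 members, list genes counted in at least 10 cells and past 2-fold the same way on both diets or in both labels, the 5 genes most correlated with the summed level, *Pomc*, and those said to be chosen after their values were seen. Alternatives were the normalized counts, CPM without the 7 ubiquitous genes (those with a count in each cell), summed counts, cells with at least 40000 counts, cells with 1000 genes or more and no more than 20% mitochondrial counts, leaving out each cell in turn, and blocks of cell numbers. Leaving out cells with over 2 microglial markers, and the share among genes counted in at least 20 cells, were added after the data were seen.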

Additional observations from a re-analysis of the deposited data

Results flagged for a closer look

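The Ghost over Pomc+ ratio of *Suclg1* was 0.565 on CD and 1.69 on HFD, and these lay past 1.5-fold on opposite sides in normalized counts as well. Whether the 2 ratios differ was not tested, because each label and diet is 1 sample of cells. Without any 1 cell the ratio stayed between 0.380 and 0.756 on CD and between 1.21 and 2.41 on HFD. With the 7 ubiquitous genes left out of the totals they were 0.690 and 1.31, and in summed counts the CD ratio was 1.34.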

How the results depend on the processing

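Of 306 ratios of single genes under alternatives, 255 were within 1.5-fold of the value reported and 51 were not, and no ratio past 2-fold turned to the other side of 1. The summed level of the 9 genes in Ghost over Pomc+ cells on CD, 0.749, was 0.453 in normalized counts, where the median of all genes had moved as well. Leaving out 1 cell at a time gave 0.641 to 0.802 for it, 0.765 to 0.933 on HFD, 0.714 to 0.821 for HFD over CD in Pomc+ cells and 0.784 to 1.04 in Ghost cells. The number of the 9 genes with a lower mean then ran from 6 to 8, 4 to 7, 4 to 7 and 4 to 7. *Sucla2* in HFD over CD of Ghost cells was 0.916 in summed counts and 0.724 in cells with at least 40000 counts or 0.755 without 1 cell, so its 2-fold difference rests on 1 Ghost CD cell. *Mpc1* in Ghost over Pomc+ cells on HFD was 1.41 in summed counts and 0.337 without 1 cell, against 0.627. The remaining causes were not tested. Shares of cells were within their counting intervals for 68 of 72 alternatives. No paired analysis was possible because no cell number is shared by 2 groups and no mouse is named. Blocks of consecutive numbers hold both labels, and weighting the label ratios over them moved 2 of 18 ratios of single genes by over 1.5-fold, both on HFD (*Idh3a* to 1.30 and *Sucla2* to 0.552). With 15 to 23 cells per group and no label for the mouse, the spread between mice cannot be seen.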

Other observations

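The subunits of the pyruvate dehydrogenase complex, which links pyruvate import to the cycle, were looked at together after their values were seen. *Pdha1*, *Pdhb*, *Dlat*, *Dld* and *Pdhx* all had their lower mean in Ghost cells on both diets in CPM and in normalized counts, where 51.9% (CD) and 56.4% (HFD) of all genes were lower in CPM and 69.2% and 63.5% in normalized counts. Their ratios ran from 0.0490 to 0.478 on CD and from 0.206 to 0.806 on HFD. The lowest on both diets was that of *Pdhx*, counted in 1 Ghost CD and 2 Ghost HFD cells. *Pdha1* was counted in 2 Ghost CD cells. Without the 7 genes counted in every cell, 5 of 5 were lower on CD and 4 of 5 on HFD. The summed level ran from 0 over a median of 281 to 1337 CPM in Pomc+ CD cells and from 0 over 24.4 to 436 CPM in Ghost CD cells, with means of 373 and 134 CPM, and 18 of 23 and 9 of 15 cells had a count for 1 or more subunits. On HFD the medians were 295 and 125 CPM and the means 317 and 184 CPM, with a count in 15 of 19 cells of each label. The ratio of means was 0.360 on CD, 0.303 to 0.408 without any 1 cell and 0.357 within blocks of cell numbers. On HFD it was 0.582, 0.458 to 0.657 without any 1 cell and 0.729 within blocks. The summed astrocyte markers were also lower in Ghost cells, with means of 860.4 and 488 CPM on CD and of 1086 and 261 CPM on HFD, and their part in these levels was not tested. The groups overlapped, and no test over mice can be made.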
